A study of Mus musculus with 2 samples.

Results

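Scavenger receptors are surface proteins by which phagocytes bind and take in modified lipoproteins, microbes, haemoglobin complexes and cell debris. They belong to several unrelated structural classes, named by letters, that share broad ligand binding rather than ancestry. In macrophages the makeup of these receptors is known to shift with activation, and several of them serve as markers of macrophage states. The 10 genes described here, Marco, Msr1, Cd36, Cd163, Stab1, Cd68, Scarb1, Mrc1, Olr1 and Colec12, were taken by gene name from a count table of 54751 gene rows. All 10 were found and all 10 averaged 1 CPM or more (counts scaled to library size) over both libraries, as did 12856 genes in the whole table.

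The data came from 1 RNA-seq library of mrWNT2-treated cells and 1 library of vehicle-treated control cells. WNT2 is one of the secreted WNT proteins, and the study asked how mrWNT2 treatment alters gene expression in these cells. The sample labels do not say what mrWNT2 is made of. Both libraries were made from cultures labelled as bone marrow-derived MDSCs (myeloid-derived suppressor cells, immature myeloid cells that can restrain T cells) of wild-type mice, kept in RPMI medium with 10% serum. The additions were made on day 0 and day 3, and the cells were taken on day 6. Strain, age, number of animals, the cytokines used to grow the cells and the dose of mrWNT2 are not given in the sources used here. The mrWNT2 library held 12621110 counts and the control library 13474453. With 1 library per group there is no replicate check and no test, and differences due to the treatment cannot be told apart from differences between any pair of cultures. Each interval below is an exact 95% binomial (Clopper-Pearson) interval, covers counting error only and compares these libraries. The labelled cell type was checked against 10 myeloid and MDSC genes, all of which were detected in both libraries, with a summed level of 38408 CPM in the mrWNT2 library and 45765 CPM in the control library. Most of that sum came from S100a8 and S100a9. Of the 10, Nos2 was 6.47-fold higher, and Arg1 and Ly6g were 2.70-fold and 2.005-fold lower. Markers of B cells summed to 4.25 CPM in the mrWNT2 library and 4.64 CPM in the control library, and those of T cells to 1.42 and 2.62 CPM in the same order.

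Scavenger receptor transcripts differed between the libraries in both directions. In the mrWNT2 library the transcript of Marco was 8.67-fold higher than in the control library, while those of the mannose receptor gene Mrc1 and the haemoglobin receptor gene Cd163 were 3.07-fold and 2.61-fold lower. Stab1 and Msr1 were lower by smaller factors, and Cd68, Scarb1, Olr1 and Cd36 were between 1.22-fold and 1.69-fold higher. Colec12 was barely detected in either library. By the rule of at least 2-fold in size, 1 of 10 genes was higher, where 3.38% of the 12856 genes were, and 2 of 10 were lower, where 2.49% were (5.87% in either direction). At 1.5-fold, 2 of 10 genes were higher against 7.62% of all genes, and 4 of 10 lower against 7.02%. The 10 genes and the lists below were chosen with earlier results of these data known. An excess over the shares of all genes therefore cannot be read as a property of the set. The counting interval lay on 1 side of a ratio of 1 for 9 of the 10 genes, as it did for 39.8% of all genes. Such intervals narrow as counts grow, and 8 of the 10 genes had a mean of at least 10 CPM, as did 8543 of the 12856. The median log2 ratio of the 10 genes was 0.18, beside 0.02 over all 12856 genes. On the same scale, the lower limits of the intervals of the 10 genes had a median of -0.34 and the upper limits one of 0.39.

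**Figure D1:**
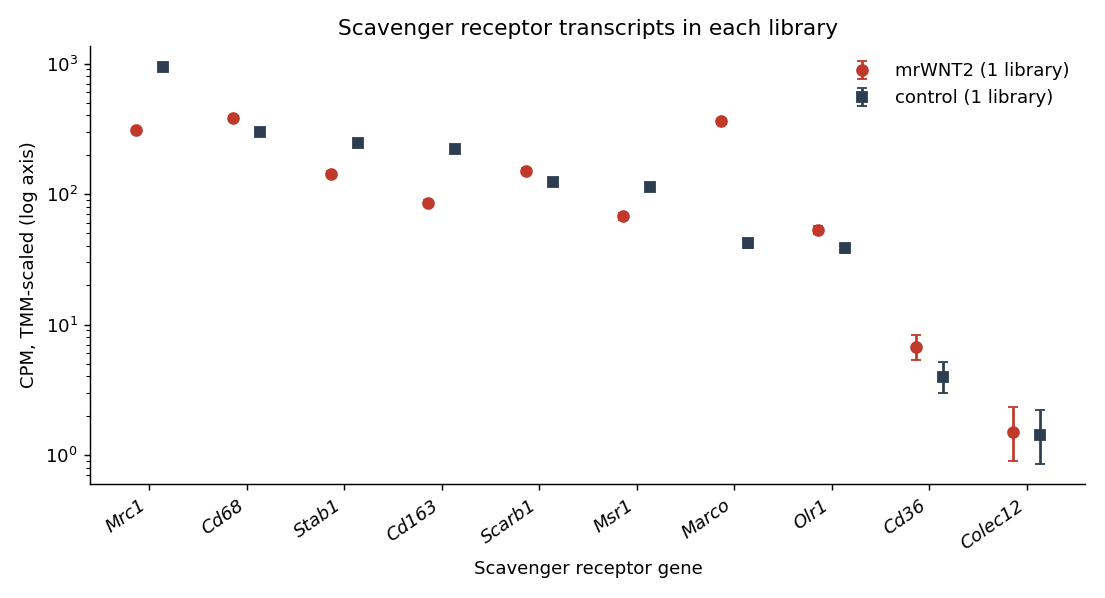
Level of each scavenger receptor gene in the mrWNT2 library (red circles, left) and the control library (dark squares, right), in CPM on a log axis, with exact 95% Poisson intervals for counting error, most of them narrower than the symbols. Genes run from the highest to the lowest level in the control library. Marco stands at 363 CPM in the mrWNT2 library and 41.9 CPM in the control library, while Mrc1 stands at 307 and 943 CPM in the same order.

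Among the class A receptors, trimers with a collagen-like stalk, Marco (ENSMUSG00000026390, chromosome 1, 120474538 to 120505024, minus strand, GRCm38) encodes a macrophage receptor for unopsonised bacteria and particles. It had 4618 counts in the mrWNT2 library and 560 in the control library, or 363 and 41.9 CPM, a ratio of 8.67 (interval 7.94 to 9.48) and a log2 ratio of 3.12. Of 8251 protein-coding genes averaging 10 CPM or more, Marco had the 19th highest ratio. Msr1 (chromosome 8, 39581685 to 39642673, minus strand) encodes a class A receptor for modified low-density lipoprotein, and its transcript differed in the other direction. It had 858 counts in the mrWNT2 library against 1507 in the control library, 67.5 and 112.7 CPM, and was 1.67-fold lower (1.53 to 1.82). Colec12 (chromosome 18), which encodes a class A receptor with a sugar-binding lectin domain, had 19 counts in each library. Its ratio of 1.05 had an interval of 0.53 to 2.10, so a difference of less than about 2-fold was not detectable at this depth. The summed class A level was 432 CPM in the mrWNT2 library and 156 CPM in the control library, 2.77-fold higher (2.63 to 2.91), most of it from Marco in the mrWNT2 library and from Msr1 in the control library.

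The ratio of Marco to Msr1 within a library does not depend on how libraries are scaled. Marco took 84.3% of the counts of this pair in the mrWNT2 library (83.3% to 85.3%), against 27.1% in the control library (25.2% to 29.1%). Per unit of gene length, on the authors' FPKM scale, Marco stood at 17.7 times the level of Msr1 in the mrWNT2 library and at 1.22 times in the control library.

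Class E holds C-type lectin-like receptors, and its members here also went separate ways. Mrc1 (ENSMUSG00000026712, chromosome 2, 14229392 to 14332057, plus strand) encodes the mannose receptor CD206, an endocytic receptor for mannose-bearing glycoproteins and a common marker of alternatively activated macrophages. It had 3904 counts in the mrWNT2 library and 12614 in the control library, or 307 and 943 CPM, 3.07-fold lower (2.96 to 3.19). That was the 9th lowest ratio of the 8251 protein-coding genes. Its difference of -636 CPM was the largest in size among the 10 genes, beside 321 CPM for Marco. Olr1 (chromosome 6, 129485244 to 129507165, minus strand) encodes LOX-1, a receptor for oxidised low-density lipoprotein that in human is used as a marker of neutrophil-like MDSCs. It had 674 counts in the mrWNT2 library and 512 in the control library, 53.0 and 38.3 CPM, 1.38-fold higher (1.23 to 1.56), short of the 2-fold rule.

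Cd163 and Stab1, each the only listed gene of its class, were both lower. Cd163 (ENSMUSG00000008845, chromosome 6, 124304656 to 124330527, plus strand) encodes the macrophage receptor that clears haemoglobin bound to haptoglobin. It had 1087 counts in the mrWNT2 library and 2979 in the control library, 85.5 and 222.8 CPM, 2.61-fold lower (2.43 to 2.80) and the 15th lowest ratio among the 8251 genes. Stab1 (chromosome 14, 31139013 to 31168641, minus strand) encodes stabilin 1, which removes modified lipoproteins and the matrix protein SPARC and is also made by sinusoidal endothelium. It had 1812 counts in the mrWNT2 library against 3310 in the control library, 142 and 248 CPM, 1.74-fold lower (1.64 to 1.84). Its 3′ end shares up to 112 exonic bases with Nt5dc2 on the opposite strand, which had 620 counts in the mrWNT2 library and 648 in the control library. Whether reads from the shared stretch were counted for either gene or left out is not known here. The other 9 genes shared no exonic bases with another gene in the GENCODE M21 annotation.

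The class B and class D receptors were all higher, by less than 2-fold. Scarb1 (chromosome 5, 125277087 to 125341094, minus strand) encodes the receptor for high-density lipoprotein that takes up cholesteryl esters. It had 1925 counts in the mrWNT2 library and 1663 in the control library, 151 and 124 CPM, 1.22-fold higher (1.14 to 1.30). Cd36 (chromosome 5, 17781690 to 17888801, minus strand), which encodes a receptor for thrombospondin, oxidised lipoproteins and fatty acids, had few reads. Its 85 counts in the mrWNT2 library and 53 in the control library, 6.68 and 3.96 CPM, gave a 1.69-fold higher ratio with a wide interval (1.18 to 2.42). Cd68 (chromosome 11, 69664213 to 69666153, minus strand) encodes macrosialin, a glycoprotein of late endosomes and lysosomes used as a general macrophage marker. It had 4837 counts in the mrWNT2 library and 4029 in the control library, 380 and 301 CPM, 1.26-fold higher (1.21 to 1.32).

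**Figure D2:**
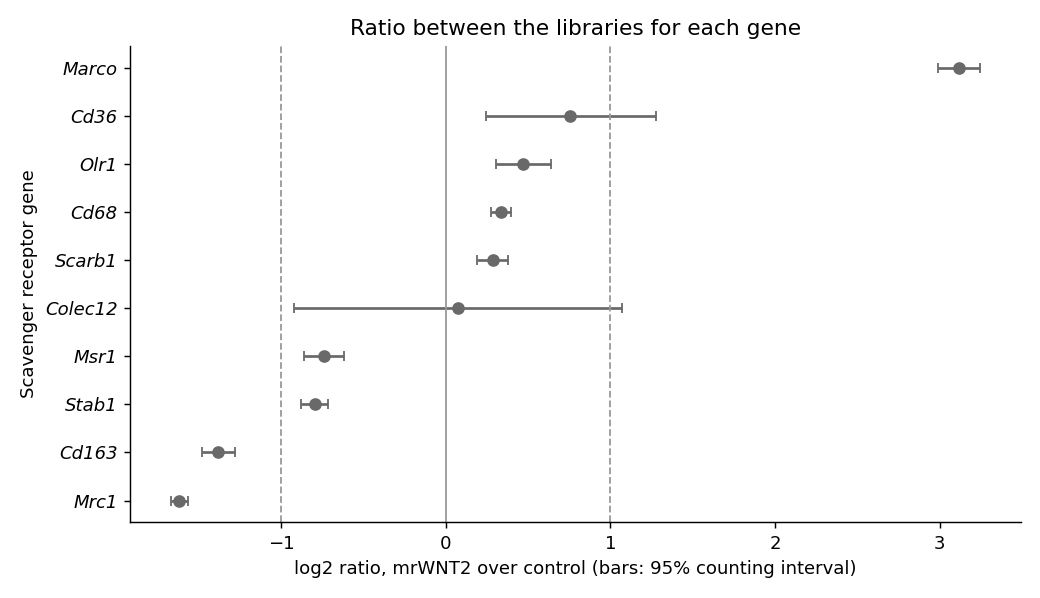
Log2 ratio of the mrWNT2 library over the control library for each scavenger receptor gene, with exact 95% counting intervals, and dashed lines at 2-fold in either direction. Marco lies alone beyond the upper line at 3.12, Mrc1 and Cd163 lie beyond the lower line at -1.62 and -1.38, and the other 7 genes lie between the lines.

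Ordered by ratio, Marco was separated from all the other genes, its interval lying above the upper limit of 2.42 for Cd36. The intervals of Cd36, Olr1, Cd68, Scarb1 and Colec12 each overlapped with that of the next gene in the order, so these genes were not ranked beyond counting error. The intervals of Msr1 and Stab1 overlapped too, and that of Colec12 was wide enough to reach them. Those of Cd163 and Mrc1 did not overlap, with Mrc1 the lower of the pair. Whether this order would hold in other cultures was not tested.

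The order of levels within a library was read from the authors' FPKM (a level per unit of gene length and of sequencing depth), which allows genes of different length to be compared. Cd68 was the most abundant in both libraries, at 299 FPKM in the mrWNT2 library and 242 FPKM in the control library. Marco was the second in the mrWNT2 library at 186 FPKM, and ranked the fifth in the control library at 22.0 FPKM. Among the protein-coding genes it ranked 178th in the mrWNT2 library and 2078th in the control library. Mrc1 was the third in the mrWNT2 library at 47.6 FPKM and the second in the control library at 149.8 FPKM. Cd163 was the fifth in the mrWNT2 library at 15.5 FPKM and the third in the control library at 41.3 FPKM. Scarb1, Olr1, Stab1 and Msr1 lay between 10.5 and 17.6 FPKM in the mrWNT2 library and between 10.8 and 24.3 FPKM in the control library. The lowest in both libraries were Cd36, at 1.84 FPKM in the mrWNT2 library and 1.12 in the control library, and Colec12, at 0.44 and 0.43 FPKM in the same order.

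In shares of the summed FPKM of the 10 genes, Marco made up 30.7% in the mrWNT2 library and 4.19% in the control library. Mrc1 made up 7.84% in the mrWNT2 library and 28.5% in the control library. The share of Cd68 was 49.2% in the mrWNT2 library and 46.2% in the control library. Summed counts of all 10 genes came to 1558 CPM in the mrWNT2 library and 2037 CPM in the control library, 1.31-fold lower. The direction of such sums depended on which genes entered. Without Mrc1 the other 9 genes were 1.14-fold higher (1.12 to 1.17), at 1251 CPM in the mrWNT2 library and 1094 CPM in the control library. Without Marco the other 9 were 1.67-fold lower, and without both the remaining 8 were 1.18-fold lower, at 888 CPM in the mrWNT2 library and 1052 CPM in the control library. Marco exceeded Mrc1 3.91 times on the FPKM scale in the mrWNT2 library, while in the control library it stood at 0.147 times the level of Mrc1.

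**Figure D3:**
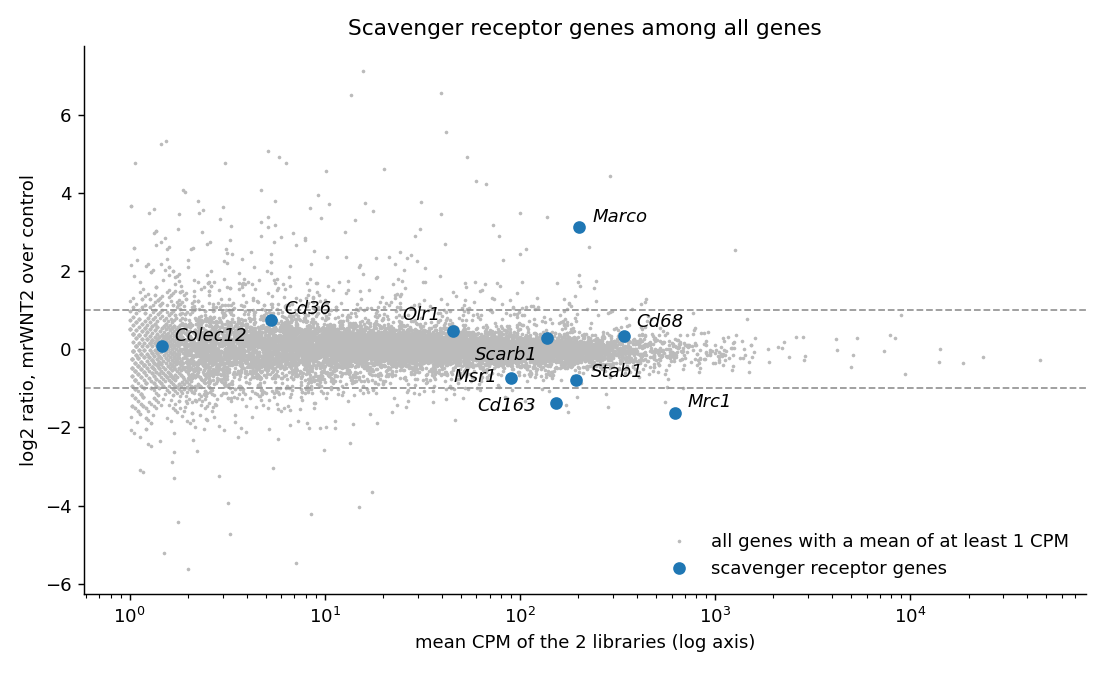
Log2 ratio of the mrWNT2 library over the control library against the mean level in CPM (log axis) for the 12856 genes averaging 1 CPM or more (grey) and the 10 scavenger receptor genes (blue), with dashed lines at 2-fold. Marco, Cd163 and Mrc1 lie beyond the dashed lines at mean levels of 203, 154 and 625 CPM.

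The genes whose ratio lay nearest to that of Marco, among named protein-coding genes averaging 10 CPM or more, were Col4a1 (8.39-fold higher), Ptges (9.12-fold) and Lepr (7.94-fold), at log2 distances of 0.05, 0.07 and 0.13. Those nearest to Mrc1 were Retnlg (3.06-fold lower), Ccl2 (2.79-fold) and Fabp5 (2.76-fold). Col4a1 and Lepr stood at 6.58 and 2.84 CPM in the control library, so they met the 10 CPM minimum only through the mrWNT2 library. The interval of the Lepr ratio was 5.65 to 11.5. Likeness of this kind rests on a single ratio between 2 libraries.

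Sequence upstream of the transcription start was taken from RefSeq (GRCm38.p6) for 7 of the 10 genes. Msr1, Scarb1 and Colec12 were left out of this search. The 250 bases before the start are shown for the 3 genes beyond 2-fold and for Cd68, the most abundant gene. Sequences are 5′ to 3′ on the strand of the gene, and capitals mark matches, on either strand, to the core motifs searched: PU.1 (GAGGAA), AP-1 (TGANTCA), TCF/LEF (CTTTGA), C/EBP (TTGCNNAA), a MAF half-site (TGCTGA), STAT (TTCNNNGAA), STAT6, the MITF/TFE E-box (CACGTG) and NF-kB. PU.1 is a transcription factor of myeloid cells, and TCF/LEF factors bind DNA in the canonical WNT pathway.
Marco, chr1:120505025-120505274, minus strand: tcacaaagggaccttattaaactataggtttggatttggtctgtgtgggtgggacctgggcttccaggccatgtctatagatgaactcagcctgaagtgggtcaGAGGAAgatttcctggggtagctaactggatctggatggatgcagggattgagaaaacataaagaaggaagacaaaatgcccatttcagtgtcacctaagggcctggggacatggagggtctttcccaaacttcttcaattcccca
Mrc1, chr2:14229164-14229413, plus strand: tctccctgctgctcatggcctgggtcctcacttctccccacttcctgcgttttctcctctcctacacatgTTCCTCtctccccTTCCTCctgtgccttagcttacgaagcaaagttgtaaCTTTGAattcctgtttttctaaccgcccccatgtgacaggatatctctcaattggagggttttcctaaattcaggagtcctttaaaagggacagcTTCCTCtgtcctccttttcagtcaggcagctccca
Cd163, chr6:124304401-124304650, plus strand: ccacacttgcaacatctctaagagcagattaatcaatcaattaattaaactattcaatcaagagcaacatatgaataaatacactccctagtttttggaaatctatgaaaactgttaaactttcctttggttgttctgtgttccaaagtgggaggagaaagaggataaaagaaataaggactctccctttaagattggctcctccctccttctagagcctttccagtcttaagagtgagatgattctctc
Cd68, chr11:69666171-69666420, minus strand: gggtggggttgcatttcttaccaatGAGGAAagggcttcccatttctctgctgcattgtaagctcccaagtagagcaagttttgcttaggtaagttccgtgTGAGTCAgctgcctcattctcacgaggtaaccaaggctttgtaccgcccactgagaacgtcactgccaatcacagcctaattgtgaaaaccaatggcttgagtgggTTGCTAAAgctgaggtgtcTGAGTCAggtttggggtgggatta

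The Marco window held 1 PU.1 core, 146 bases before the start, and no match to the other motifs. That of Mrc1 held 3 PU.1 cores, at 180, 167 and 35 bases before the start, and 1 TCF/LEF core at 130 bases. The Cd163 window held no match to any of the motifs. The Cd68 window held a PU.1 core, a pair of AP-1 matches at 149 and 24 bases before the start, and a C/EBP match. Of the 32851 windows of the same length in the table, 23.2% held a PU.1 core, 13.8% a TCF/LEF core, 6.75% an AP-1 match, 9.56% a C/EBP match, 16.1% a MAF half-site, 7.02% a STAT match, 5.85% a STAT6 match, 6.02% the E-box and 7.25% an NF-kB match. The matches describe the letters of the windows, and binding was not measured. The RefSeq start of Mrc1 lies 22 bases inside the deposited gene, that of Cd163 lies 5 bases before it and that of Cd68 17 bases before it.

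Other scavenger and endocytic receptors, listed by class and function, went both ways. Of 34 listed genes, 19 averaged 1 CPM or more, and of these 2 stood at 2-fold or more above the control and 3 at 2-fold or more below it, beside the 3.38% and 2.49% of all genes. Their median log2 ratio was 0.01, beside 0.02 over all genes, and its sign turned with the scaling. The higher genes were Cxcl16 (2.11-fold, 1.65 to 2.72), whose product is both a chemokine and a receptor for oxidised lipoprotein, and Cd14 (2.03-fold, 1.91 to 2.16), the endotoxin co-receptor. The lower ones were Cd5l, which encodes a secreted macrophage protein with scavenger receptor domains, the beta-glucan receptor gene Clec7a (3.04-fold) and Axl (2.08-fold), which encodes a receptor for apoptotic cells. Cd5l had 11 counts in the mrWNT2 library and 215 in the control library, 18.6-fold lower (10.2 to 37.8). At 0.865 CPM in the mrWNT2 library, Cd5l met the minimum mean of 1 CPM only through the control library. Lrp1, the most abundant of the list and a large endocytic receptor, stood at 696 CPM in the mrWNT2 library and 678 CPM in the control library (1.03-fold, 0.996 to 1.06). Scara5, Dmbt1, Havcr1, Lrp1b, Ssc5d and Timd4 had a count of 0 in each library, for which the upper limit is 0.236 CPM in the mrWNT2 library and 0.224 CPM in the control library (3 counts each).

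Ligands and opsonins of these receptors also went both ways. Of 31 listed genes, 24 were measured, with 3 higher and 8 lower by 2-fold or more, beside 3.38% higher and 2.49% lower over all genes. Their median log2 ratio of 0.06 had no stable sign, at -0.20 with no expression minimum and 0.34 among genes averaging 10 CPM or more. The acute-phase gene Saa3, whose protein family is known to bind class B scavenger receptors, was 5.82-fold higher (5.65 to 6.002), at 2164 CPM in the mrWNT2 library and 372 CPM in the control library. The lipase gene Lpl was 2.45-fold higher (2.35 to 2.55). The other higher gene was Saa1, with 26 counts in the mrWNT2 library and 1 in the control library (ratio 27.3, 4.49 to 1121). At 0.075 CPM in the control library, Saa1 met the minimum mean of 1 CPM only through the mrWNT2 library. The apolipoprotein gene Apoe was 2.55-fold lower (2.45 to 2.64) and the complement gene C1qb 2.50-fold lower (2.30 to 2.73). Thbs1, which encodes thrombospondin 1, a ligand of CD36, and was the most abundant gene of the list, was 1.28-fold higher (1.27 to 1.29), at 8898 CPM in the mrWNT2 library and 6946 CPM in the control library. A pair of partner genes was chosen after values were seen. Hp, which encodes the haptoglobin cleared through CD163, was 1.70-fold higher (1.67 to 1.74). Sparc, whose protein is a ligand of stabilin 1, had 13 counts in the mrWNT2 library and 42 in the control library, 3.07-fold lower (1.62 to 6.24).

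Genes acting after uptake and genes of the uptake machinery are read beside the 5.87% of all genes that were beyond 2-fold. Of 31 measured genes of lipid and cholesterol handling, 1 was higher and 1 lower by 2-fold or more, and their median log2 ratio was -0.07. The lower one was the fatty acid binding protein gene Fabp5 (2.76-fold, 2.55 to 3.00). The higher one was Ch25h, which encodes an oxysterol-forming enzyme, from 30 counts in the mrWNT2 library and 11 in the control library. Its ratio of 2.87 had an interval of 1.40 to 6.34, which reached below 2-fold. At 0.82 CPM in the control library, Ch25h met the minimum mean of 1 CPM only through the mrWNT2 library. Plin2, which encodes a lipid droplet coat protein and was the most abundant of the list, was 1.08-fold lower. Of 35 measured genes of receptor signalling and uptake, such as clathrin and dynamin genes, 0 were beyond 2-fold, and their median was -0.03. Rac2, the most abundant of them, was 1.02-fold lower (0.9995 to 1.05). Of 27 transcription factor genes known to act on macrophage receptor genes, 1 was at least 2-fold higher and 0 were at least 2-fold lower. Their median log2 ratio was -0.04. The higher one was Batf3, with 26 counts in the mrWNT2 library and 12 in the control library. Its ratio of 2.28 had an interval of 1.11 to 4.96, which also reached below 2-fold. At 0.90 CPM in the control library, Batf3 too met the minimum mean of 1 CPM only through the mrWNT2 library. Spi1, which encodes PU.1, stood at 349 CPM in the mrWNT2 library and 363 CPM in the control library (ratio 0.96, 0.92 to 1.002).

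**Figure D4:**
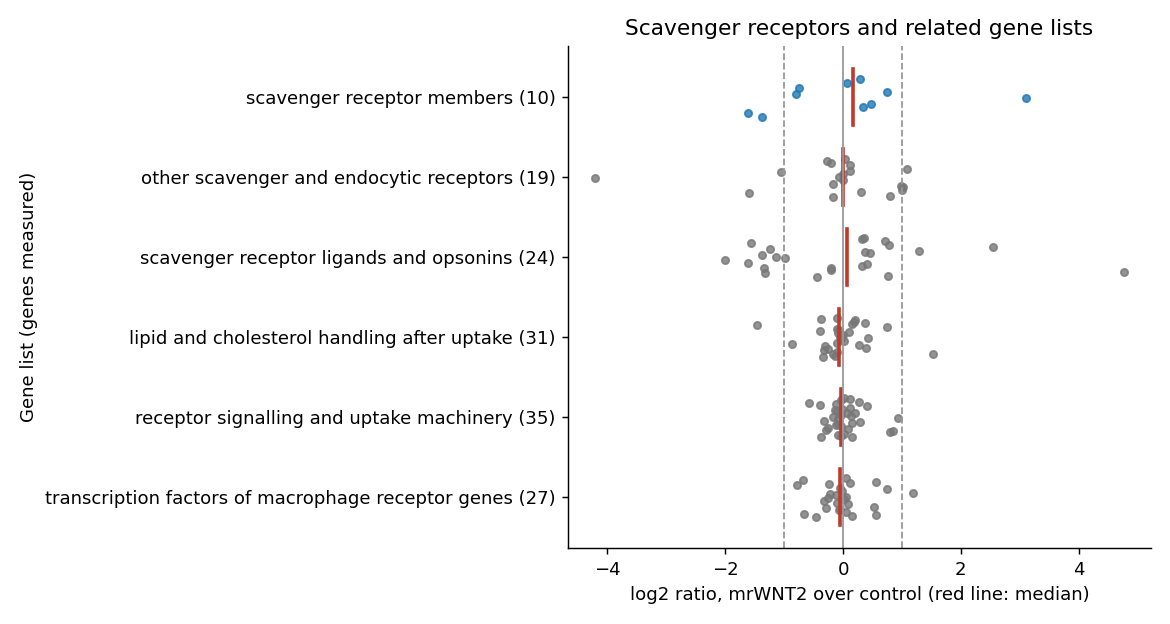
Log2 ratio of the mrWNT2 library over the control library for each measured gene of the scavenger receptor genes (blue) and 5 related gene lists (grey), with the median of each list as a red line and dashed lines at 2-fold. The number of genes measured stands in brackets, and the medians lie between -0.07 and 0.18.

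Several of the 10 genes are expressed by more than 1 cell type, and in bulk libraries fewer cells of a type and less RNA per cell cannot be told apart. Of 12 macrophage markers, 11 were detected in both libraries and Timd4 was at 0 in both. Their summed level was 1273 CPM in the mrWNT2 library and 970 CPM in the control library, while their median log2 ratio was -0.78. Of the 11 measured, 6 were at least 1.5-fold lower and 3 at least 1.5-fold higher, beside 7.02% and 7.62% of all genes. The higher sum came from Adgre1, at 584 CPM in the mrWNT2 library and 325 CPM in the control library, and Csf1r. Csf1r (2.37-fold) and Siglec1 (2.87-fold) were at least 2-fold higher, and C1qb, C1qc, Cd5l and Vsig4 at least 2-fold lower. Of these, Cd5l met the minimum mean of 1 CPM only through the control library. Over all genes the 2-fold shares were 3.38% higher and 2.49% lower, beside which the marker lists below are also read. All 14 neutrophil markers were detected, with a summed level of 68883 CPM in the mrWNT2 library and 85425 CPM in the control library, and Ly6g and Retnlg were at least 2-fold lower. The 8 monocyte markers summed to 2930 CPM in the mrWNT2 library and 3043 CPM in the control library, with Cd14 the gene beyond 2-fold and Cx3cr1 at 0 in the control library, and the 8 dendritic cell markers to 10.9 and 11.1 CPM in the same order, with Siglech at 0 in both and Cd209a at 0 in the mrWNT2 library. Itgae, from the dendritic cell list, had 9 counts in the mrWNT2 library and 19 in the control library. At 0.71 CPM in the mrWNT2 library, Itgae met the minimum mean of 1 CPM only through the control library.

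Of 10 endothelial markers, 9 were detected in the mrWNT2 library and 10 in the control library. They summed to 116 CPM in the mrWNT2 library and 93.6 CPM in the control library. Most of both sums came from Pecam1 (47.9 CPM in the mrWNT2 library and 41.6 CPM in the control library) and Vwf (49.6 and 35.9 CPM). Kdr had 2 counts and Tek 1 count in each library, and Emcn had 2 in the mrWNT2 library and 5 in the control library. Eng was 2.18-fold higher (1.49 to 3.25), and Lyve1, a marker of lymphatic and sinusoidal endothelium, was 3.29-fold lower (1.65 to 7.13), with 11 counts in the mrWNT2 library and 38 in the control library. At 0.865 CPM in the mrWNT2 library, Lyve1 met the minimum mean of 1 CPM only through the control library. The one at 0 in the mrWNT2 library was Cdh5, which had 1 count in the control library. The 12 stromal and adipocyte markers summed to 35.9 CPM in the mrWNT2 library and 33.0 CPM in the control library, with Adipoq at 0 in the mrWNT2 library and Plin1 at 0 in the control library. Lepr made up most of the sum in the mrWNT2 library, at 22.6 CPM there and 2.84 CPM in the control library. The median log2 ratio of the 7 measured genes was -1.38, and Col1a1, Col1a2, Bgn and Sparc were at least 2-fold lower. Megakaryocyte and platelet markers summed to 260.0 CPM in the mrWNT2 library and 535 CPM in the control library, a difference held mostly by Pf4 (2.76-fold lower), with Gp1bb at 0 in both. Osteoclast markers summed to 535 CPM in the mrWNT2 library and 947 CPM in the control library, most of it from Mmp9, which neutrophils also express, with Calcr at 0 in both and Ocstamp at 0 in the control library. Acp5, the gene of this list beyond 2-fold, was 2.77-fold higher (2.43 to 3.16), with 850 counts in the mrWNT2 library and 323 in the control library. Erythroid markers summed to 1.49 CPM in the mrWNT2 library and 1.27 CPM in the control library. The part of any of these cells in the receptor differences was not tested.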

How the data were processed

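RNA-seq was analysed from 2 deposited tables, with 1 column each for the mrWNT2 and the control culture. Per the submitters' processing notes, HISAT2 2.0.5 and featureCounts 1.5.0-p3 were used with the GRCm38 (mm10) build, along with DESeq2 1.20.0, CASAVA 1.8 and fastp. The strand setting of the counting is not stated there. The authors deposited raw counts per gene and FPKM. The FPKM ratios equalled those of the deposited counts scaled by DESeq2 median-of-ratios factors, differing by at most 2.2e-08 (log2) over 10078 genes with over 50 counts.

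Counts were scaled with TMM factors in edgeR 4.0.16 (R 4.3.3), and DESeq2 1.42.0 gave the alternative size factors. Ratios carry no pseudocount, and a count of 0 stood at 3 counts. Genes averaging 1 CPM or more were kept (12856), and a gene was counted as higher or lower at 2-fold. Intervals were exact 95% binomial or Poisson intervals (scipy 1.17.1). The ratio intervals were tried on simulated Poisson counts. Such counts follow the model that the intervals assume, so the trial checked the code and not the spread between cultures. PCR copies cannot be told from molecules, so intervals cover counting error only.

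The members and lists were chosen with earlier results of these data known. All 10 members were named. From each other list, up to 4 genes with the largest ratio among those at least 2-fold different with a mean of at least 10 CPM, and the most highly expressed gene, were named, along with the 3 nearest ratios to Marco and Mrc1. Where a list had 5 or fewer genes beyond 2-fold the others were named too, after their values were seen, as were Saa1, the partner genes and cell markers. A listed symbol, Idol, was not found. Coordinates are those of the deposited table.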

Additional observations from a re-analysis of the deposited data

How the results depend on the processing

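Library totals, DESeq2 size factors, upper-quartile scaling, the deposited FPKM, and 0.5 or 5 counts added to each library were tried for each of the 10 genes. All 60 resulting log2 ratios lay inside the counting interval of the value reported, with the same sign for each of the 3 genes beyond 2-fold, and scaling moved a log2 ratio by at most 0.052. With a rule of at least 1.5-fold in place of 2-fold, 2 of the 10 genes were higher and 4 lower, and 14.6% of all genes were counted as higher or lower. The number of the 10 genes beyond 2-fold was 1 higher and 2 lower under each scaling, under each expression minimum and when the counting interval had to lie on 1 side of 1. The share of all genes beyond 2-fold was 12.6% with no expression minimum and 2.52% at a mean of at least 10 CPM; the cause was not tested. The median log2 ratio of the ligand and opsonin list was 0.06 as reported, -0.20 with no expression minimum and 0.34 at 10 CPM, and that of the other receptor list ranged from -0.05 under upper-quartile scaling to 0.03 under library totals, so neither kept its sign. The medians of the other 3 lists were below 0 under every scaling and expression minimum tried. Depth limits Cd36 and Colec12. No paired analysis was possible because each group had 1 library, and for the same reason no replicate could be left out.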

Other observations

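Genes next to the scavenger receptor genes were looked up after the receptor values were seen, as the nearest gene on either side that is protein-coding or annotated as a polymorphic pseudogene and has a mean of at least 1 CPM. Clec7a, which lies 12.5 kb from Olr1 within a cluster of lectin receptor genes on chromosome 6, was 3.04-fold lower (2.51 to 3.70), with 139 counts in the mrWNT2 library and 444 in the control library, while Olr1 was 1.38-fold higher. The zinc transporter gene Slc39a12, 56.3 kb from Mrc1 on chromosome 2, had 1 count in the mrWNT2 library and 39 in the control library (ratio 0.027, interval 0.00067 to 0.16). Slc39a12 met the minimum mean of 1 CPM, and so entered as a neighbour, only through the control library. On the other side of Mrc1, Stam was at a ratio of 1.04 (0.89 to 1.22). Next to Cd36, the semaphorin gene Sema3c was 2.35-fold higher (1.30 to 4.44), from 38 counts in the mrWNT2 library and 17 in the control library. The neighbours of Marco were Steap3 (1.73-fold higher, 1.25 to 2.41) and Insig2 (ratio 0.99, 0.84 to 1.16), 201.8 kb and 799.3 kb away. Clec4e, the nearest measured gene below Cd163 at 1014.8 kb, was 2.98-fold higher (2.82 to 3.16), with 4557 counts in the mrWNT2 library and 1607 in the control library, and Pex5 on the other side was at a ratio of 1.08 (0.96 to 1.23).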
